A study of Mus musculus with 7 samples.

Results

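Epidermal growth factor (EGF) receptor signalling was examined at the transcript level through 10 genes chosen by name: the ligand genes Areg, Ereg, Hbegf, Tgfa, Btc and Epgn, the receptor genes Egfr, Erbb2 and Erbb3, and the inhibitor gene Errfi1. They were found by symbol among the 55450 genes of the count table, and all 10 passed the filter on low counts. Skin homogenate of 7 male C57BL/6 mice, all 24 months old, was sequenced in bulk with 1 library per mouse. Dorsal hair was clipped and removed with a depilatory lotion before 5 days of topical treatment under a semi-occlusive film. Mice 480 to 483 received the vehicle DMSO (4 mice), and mice 476 to 478 received 5 μM ABT-263 dissolved in DMSO (3 mice). ABT-263, also called navitoclax, inhibits anti-apoptotic proteins of the Bcl-2 family and was applied here as a senolytic, a drug meant to remove senescent cells. No untreated skin was compared, so hair removal, dressing and vehicle are shared by both groups.

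EGF receptor ligands are made as membrane-bound precursors, are cut free by proteases of the ADAM family and bind ErbB receptors, which pair up and switch on the Ras-MAP kinase and PI3-kinase pathways. In skin, keratinocytes both make and receive these ligands, and the pathway is known for driving keratinocyte growth and migration during wound closure and for shaping hair follicles. Amphiregulin (Areg), transforming growth factor alpha (Tgfa) and epigen (Epgn) bind EGFR, while heparin-binding EGF-like growth factor (Hbegf), betacellulin (Btc) and epiregulin (Ereg) can also bind ERBB4. ERBB2 has no known ligand and acts as a partner of the other receptors, ERBB3 binds neuregulins and has little kinase activity of its own, and ERRFI1 is induced by the pathway and inhibits the kinase domain of EGFR.

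Between 20344364 and 43562330 read pairs were counted per library, with every ABT-263 library larger than every DMSO library. Levels are given in CPM (counts scaled to a common library size), scaled with the trimmed mean of M-values (TMM) method. Changes are log2 fold changes of ABT-263 against DMSO from edgeR's quasi-likelihood test, with p-values adjusted over the 17959 genes tested by the Benjamini-Hochberg method and a threshold of 0.05. The labelled tissue carried the keratins that define epidermis in every mouse: the summed level of 7 basal keratinocyte markers lay between 13870 and 35950 CPM. Skeletal muscle markers were also present in every mouse, at 16730 to 50740 CPM in sum.

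After ABT-263, 4 of the 10 genes were higher at the threshold: the ligand genes Tgfa, Areg and Hbegf and the receptor gene Egfr. None was lower in the edgeR test, and none was lower at an unadjusted p-value under 0.05 or in the DESeq2 Wald test. Of all genes tested, 12.4% were higher and 11.7% lower by the same rule. The median log2 fold change was 0.59 over the 10 genes and 1.38 over the 6 ligand genes, beside 0.0022 over all genes tested. The 10 genes were chosen with earlier results of these data known, so these shares and medians are a description only. In 5 of the 10 genes (Areg, Hbegf, Tgfa, Epgn and Egfr) every ABT-263-treated mouse lay above every DMSO-treated mouse, as in 18.7% of all genes tested. In 0 of the 10 every ABT-263-treated mouse lay below, as in 18.4% of all genes tested. In bulk tissue a change in the number of cells that express a gene and a change in its level per cell cannot be told apart. With single mice left out, the count of 4 became 2 (Areg and Tgfa) without DMSO-treated mouse 482 or 483 or without ABT-263-treated mouse 476 or 478, as Hbegf and Egfr then missed the threshold.

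**Figure D1:**
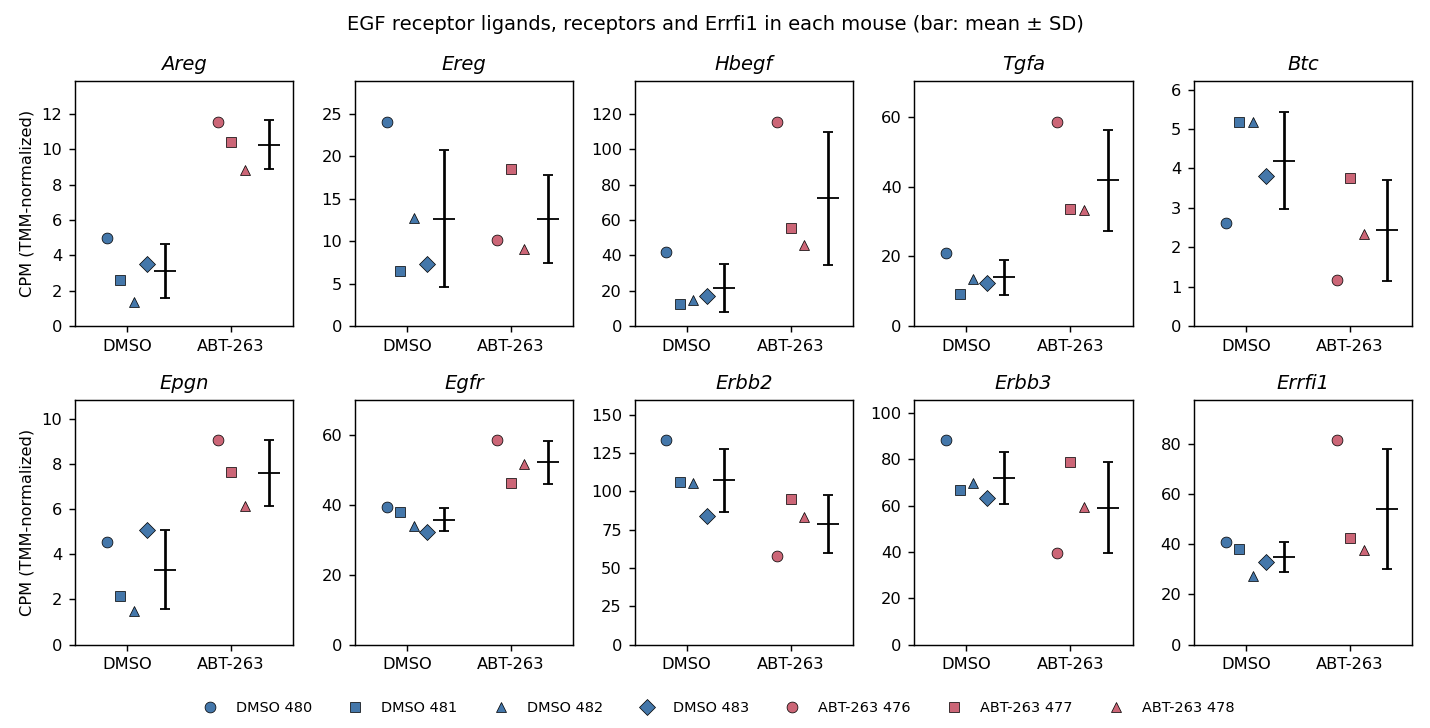
Level of each of the 10 genes in each mouse, in TMM-normalized CPM on a linear axis that starts at 0 (points: mice, with the symbol naming the mouse; horizontal mark and bar: mean ± SD of 4 DMSO and 3 ABT-263 mice). The groups do not overlap for Areg, Hbegf, Tgfa, Epgn and Egfr, and overlap for the other 5 genes.

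Tgfa, which encodes the ligand transforming growth factor alpha, had the smallest p-value of the 10 genes. Its level was 21.1, 9.23, 13.4 and 12.4 CPM in DMSO-treated mice 480, 481, 482 and 483, and 58.6, 33.5 and 33.4 CPM in ABT-263-treated mice 476, 477 and 478. The lowest ABT-263-treated mouse was above the highest DMSO-treated mouse, and mouse 476 stood well above the other two of its group. The mean went from 14.1 ± 5.04 CPM (n = 4) to 41.9 ± 14.5 CPM (n = 3, both SD), which edgeR estimated as 1.57 on the log2 scale (SE 0.31, adjusted p = 0.0138). It passed the threshold in 7 of 7 fits with 1 mouse left out, with log2 fold changes from 1.26 to 1.84. Tgfa lies on chromosome 6 from 86195223 to 86275719 (GRCm38, forward strand).

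Areg, the amphiregulin gene, also rose. DMSO-treated mice 480 to 483 had 4.99, 2.61, 1.39 and 3.53 CPM, and ABT-263-treated mice 476 to 478 had 11.6, 10.4 and 8.81 CPM. The 3 treated mice were close to each other and all above the controls. The mean went from 3.13 ± 1.52 CPM (n = 4) to 10.3 ± 1.38 CPM (n = 3, both SD), and the edgeR estimate was 1.71 on the log2 scale (SE 0.38, adjusted p = 0.0179). These levels rest on 27 to 122 read pairs per DMSO library and 323 to 414 per ABT-263 library. Areg also passed in 7 of 7 fits with 1 mouse left out, with log2 fold changes from 1.46 to 2.02.

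Hbegf encodes a ligand known for its part in keratinocyte migration during wound closure, and its transcript had the widest spread of those that rose. It was at 41.7, 12.5, 14.99 and 16.9 CPM in DMSO-treated mice 480 to 483 and at 115.6, 55.3 and 45.8 CPM in ABT-263-treated mice 476 to 478. Each group held 1 mouse far above the rest, mouse 480 among the controls and mouse 476 among the treated, and mouse 480 came close to the lowest treated mouse. The mean went from 21.5 ± 13.6 CPM (n = 4) to 72.2 ± 37.8 CPM (n = 3, both SD), with an edgeR estimate of 1.74 on the log2 scale (SE 0.49, adjusted p = 0.0392). The call held in 1 of 7 fits with 1 mouse left out, the one without mouse 480, where the log2 fold change was 2.28 (adjusted p = 0.0110). Without mouse 476 the log2 fold change was 1.24 (adjusted p = 0.143).

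Epgn, the epigen gene, moved the same way without passing the threshold. Its level was 4.54, 2.15, 1.49 and 5.05 CPM in DMSO-treated mice 480 to 483 and 9.04, 7.64 and 6.12 CPM in ABT-263-treated mice 476 to 478. All treated mice were above all controls, by a small margin between mice 478 and 483. The log2 fold change was 1.19 with a 95% interval from 0.24 to 2.15 (adjusted p = 0.0688 from edgeR), and the DESeq2 Wald test gave an adjusted p of 0.0263.

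The other 2 ligand genes had estimates at or below 0. Ereg, the epiregulin gene, was at 24.0, 6.45, 12.7 and 7.35 CPM in DMSO-treated mice 480 to 483 and at 10.1, 18.5 and 9.06 CPM in ABT-263-treated mice 476 to 478. The groups overlapped fully, with the highest value in a control. Its log2 fold change of -0.0075 had a 95% interval from -1.13 to 1.12 (adjusted p = 0.992 from edgeR). As fold changes, that interval runs from 0.456 to 2.17. Btc, the betacellulin gene, was at 2.62, 5.18, 5.18 and 3.82 CPM in DMSO-treated mice 480 to 483 and at 1.18, 3.76 and 2.34 CPM in ABT-263-treated mice 476 to 478. It was the one ligand gene whose lowest values were in treated mice, although mouse 477 lay within the control range. The log2 fold change of Btc was -0.78 with a 95% interval from -1.74 to 0.18 (adjusted p = 0.199 from edgeR).

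**Figure D2:**
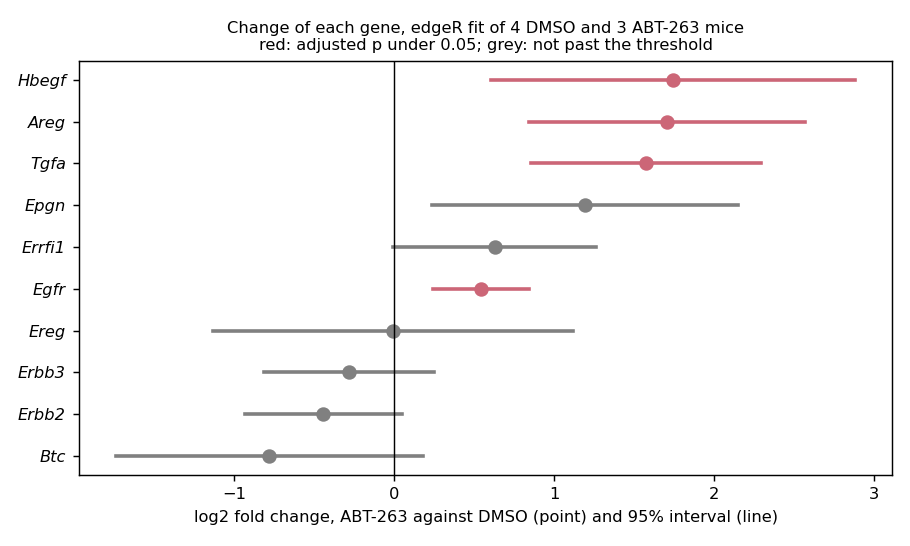
Log2 fold change of each gene, ABT-263 against DMSO, with its 95% interval from the edgeR fit of 4 DMSO and 3 ABT-263 mice (red: adjusted p under 0.05, grey: not past the threshold). Hbegf, Areg and Tgfa lie between 1.57 and 1.74, Egfr at 0.54, and the intervals of Ereg, Btc, Erbb2, Erbb3 and Errfi1 include 0.

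Of the 6 ligand genes, 4 are neighbours. Epgn (91027464 to 91035215), Ereg (91074622 to 91093646) and Areg (91139599 to 91148432) lie in a row on the forward strand of chromosome 5 (GRCm38), and Btc (91357261 to 91402994) follows on the reverse strand. The span of 375.5 kb holds no other protein-coding gene. Neighbours in this row differed in their estimates: Areg rose by 1.71 on the log2 scale, Epgn had 1.19, Ereg -0.0075 and Btc -0.78. Hbegf lies apart on chromosome 18 from 36504927 to 36515805.

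Of the 3 receptor genes, Egfr alone passed the threshold. Egfr, the receptor that all 6 ligands bind, was at 39.2, 37.8, 33.9 and 32.0 CPM in DMSO-treated mice 480 to 483 and at 58.4, 46.1 and 51.6 CPM in ABT-263-treated mice 476 to 478. The groups did not overlap, and the spread within each was small. The mean went from 35.7 ± 3.31 CPM (n = 4) to 52.0 ± 6.11 CPM (n = 3, both SD), a 1.46-fold rise in the edgeR fit (log2 0.54, SE 0.13, adjusted p = 0.0235). With 1 mouse left out the log2 fold change lay between 0.46 and 0.65 and passed the threshold in 3 of 7 fits. Egfr spans 166 kb of chromosome 11, from 16752203 to 16918158.

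Erbb2, the gene of the receptor without a ligand, was at 133, 106, 105 and 83.7 CPM in DMSO-treated mice 480 to 483 and at 57.7, 94.9 and 83.6 CPM in ABT-263-treated mice 476 to 478. The lowest value was in treated mouse 476, while mice 477 and 478 lay near or inside the control range. The log2 fold change was -0.45 with a 95% interval from -0.94 to 0.05 (adjusted p = 0.158 from edgeR). Erbb3, the gene of the neuregulin receptor, was at 88.3, 66.6, 70.0 and 63.4 CPM in DMSO-treated mice 480 to 483 and at 39.6, 78.8 and 59.3 CPM in ABT-263-treated mice 476 to 478. Mouse 476 was again the lowest of all, and mouse 477 exceeded 3 of the 4 controls. The log2 fold change of Erbb3 was -0.28 with a 95% interval from -0.81 to 0.25 (adjusted p = 0.397 from edgeR). Without mouse 476 the estimates moved toward 0, to -0.26 for Erbb2 and -0.06 for Erbb3.

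Errfi1, the gene of the feedback inhibitor, was at 40.9, 38.3, 27.3 and 33.2 CPM in DMSO-treated mice 480 to 483 and at 81.6, 42.7 and 37.8 CPM in ABT-263-treated mice 476 to 478. Mouse 476 alone stood clear of the controls, and mouse 478 lay inside their range. The log2 fold change was 0.63 with a 95% interval from -0.01 to 1.26 (adjusted p = 0.128 from edgeR). It was 0.21 without mouse 476.

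Promoter sequence from RefSeq (GRCm38.p6) was used for 7 of the 10 genes, and those of Ereg, Hbegf and Erbb3 were not analysed here. The 250 bases before the transcription start were searched on both strands for 4 motifs: the cAMP response element (CRE), the AP-1 site, the GC box and the TATA box. The windows of the called genes Areg, Tgfa and Egfr are shown because their transcripts rose, and that of Errfi1 because it shares a rare motif with Areg. Each is read 5′ to 3′ on the forward strand, and capitals mark motif matches, a GC box on the reverse strand reading CCGCCC.
Areg (chr5:91139349-91139598): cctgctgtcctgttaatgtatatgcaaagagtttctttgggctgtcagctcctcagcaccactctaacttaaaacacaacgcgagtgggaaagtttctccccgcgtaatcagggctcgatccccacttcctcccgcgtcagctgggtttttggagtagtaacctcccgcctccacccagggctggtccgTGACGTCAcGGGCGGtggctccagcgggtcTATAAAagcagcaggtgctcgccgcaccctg
Tgfa (chr6:86194972-86195221): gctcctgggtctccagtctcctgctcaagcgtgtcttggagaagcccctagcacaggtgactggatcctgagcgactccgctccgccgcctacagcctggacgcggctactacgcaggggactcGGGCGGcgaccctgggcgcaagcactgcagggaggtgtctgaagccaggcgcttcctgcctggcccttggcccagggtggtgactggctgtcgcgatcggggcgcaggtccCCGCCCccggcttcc
Egfr (chr11:16751953-16752202): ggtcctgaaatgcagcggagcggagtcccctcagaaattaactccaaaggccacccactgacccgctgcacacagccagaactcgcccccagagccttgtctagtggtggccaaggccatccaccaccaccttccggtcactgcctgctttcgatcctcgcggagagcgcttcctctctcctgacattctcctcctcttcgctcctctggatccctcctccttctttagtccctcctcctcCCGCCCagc
Errfi1 second start (chr4:150854820-150855069): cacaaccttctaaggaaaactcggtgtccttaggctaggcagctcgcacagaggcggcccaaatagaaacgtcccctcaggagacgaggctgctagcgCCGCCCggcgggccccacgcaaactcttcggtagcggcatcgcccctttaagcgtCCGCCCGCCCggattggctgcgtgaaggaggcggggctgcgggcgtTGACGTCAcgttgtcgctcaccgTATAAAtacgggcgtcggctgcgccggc
The CRE, TGACGTCA, a palindrome bound by CREB and ATF factors, occurred at -61 to -54 from the start of Areg and at -51 to -44 from the second start of Errfi1, while 1.55% of all 32851 promoter windows hold it. Both windows also hold the TATA box, searched as TATAAA, at -31 to -26 and at -28 to -23, beside 12.4% of all windows. Tgfa and Egfr hold GC boxes, searched as GGGCGG, and no TATA box, and 32.7% of all windows hold a GC box. The last 2 GC boxes of Errfi1, at -97 to -92 and -93 to -88, overlap. No window of the 7 genes holds the AP-1 site, searched as TGANTCA, which occurs in 6.75% of all windows. Epgn holds a TATA box at -86 to -81 from its RefSeq start. Its window (91027267 to 91027516) runs past the gene start given above, 91027464, so the position from that start differs. The Erbb2 window likewise runs past the start of its gene. None of the 4 motifs is in the windows of Btc and Erbb2 or at the first start of Errfi1. These matches describe letters in a window and were not tested as binding sites.

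To compare levels between genes, CPM was divided by the exonic length of each gene in kb. After DMSO, Erbb2 led with 20.6 ± 3.91 CPM per kb (SD, n = 4), followed by Erbb3 with 11.98 ± 1.85, and the ranges of the 2 did not overlap. Errfi1 came next with 9.75 ± 1.68 CPM per kb, overlapping Erbb3. Hbegf (4.45 ± 2.81), Egfr (3.16 ± 0.293), Ereg (3.06 ± 1.96), Areg (2.58 ± 1.25), Tgfa (2.17 ± 0.777), Epgn (1.83 ± 0.97) and Btc (0.930 ± 0.273 CPM per kb) followed, each overlapping its neighbour in this order. Egfr was thus the least abundant of the 3 receptor transcripts per length. After ABT-263, Erbb2 (15.1 ± 3.66 CPM per kb), Errfi1 (15.1 ± 6.70) and Hbegf (14.9 ± 7.83; all SD, n = 3) stood at nearly the same mean with overlapping ranges, and Areg moved from place 7 to place 5. Btc was last in both groups, and after ABT-263 its range lay below that of its neighbour Ereg.

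**Figure D3:**
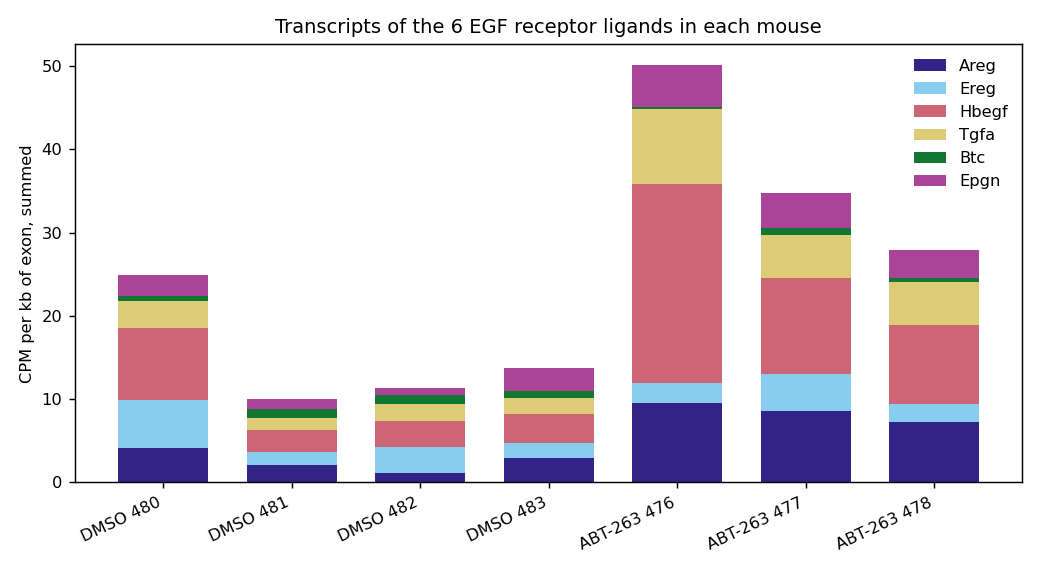
Stacked levels of the 6 ligand transcripts in each mouse, in CPM per kb of exon (bar: 1 mouse, colours: genes). The summed height runs from 10.1 to 24.9 in the DMSO-treated mice and from 28.0 to 50.2 in the ABT-263-treated mice.

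Summed over the 6 ligands, the level was 24.9, 10.1, 11.4 and 13.7 CPM per kb in DMSO-treated mice 480 to 483 and 50.2, 34.7 and 28.0 CPM per kb in ABT-263-treated mice 476 to 478. The sum of the 3 receptors was 43.7, 34.8, 34.9 and 29.4 CPM per kb in the controls and 22.8, 35.4 and 30.5 CPM per kb in the treated mice, so the receptor sum overlapped between groups where the ligand sum did not. Within the ligand sum, the mean share of Hbegf was 28.3% ± 4.32 (SD, n = 4) after DMSO and 38.1% ± 8.25 (SD, n = 3) after ABT-263. That of Areg was 17.3% ± 5.32 and 23.2% ± 3.73, and that of Ereg 19.8% ± 6.62 and 8.55% ± 4.06. Btc went from 7.49% ± 4.10 to 1.59% ± 0.964, with mouse 480 (2.33%) below treated mouse 477 (2.39%). Within the receptor sum, Egfr made up 7.91 to 9.61% in the 4 controls and 22.6, 11.5 and 14.97% in treated mice 476, 477 and 478.

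Whether transcripts of the family changed relative to each other was examined through the log2 ratio of CPM within each mouse for 15 pairs of ligand genes and 3 pairs of receptor genes, a comparison added after the values were seen. An exact two-sided permutation test over the 35 ways to choose 3 of 7 mice cannot give a p-value below 0.0286. That value was reached by 4 of the 18 pairs, Ereg over Hbegf, Ereg over Tgfa, Egfr over Erbb2 and Egfr over Erbb3. After adjustment over the 18 pairs the smallest p was 0.114 (exact permutation test), so 0 of 18 passed. The log2 ratio of Egfr to Erbb2 was -1.77, -1.49, -1.64 and -1.38 in DMSO-treated mice 480 to 483 and 0.02, -1.04 and -0.70 in ABT-263-treated mice 476 to 478. It was on average 1.00 higher after ABT-263, in 3 of 3 mice above every control, with mouse 476 farthest. The log2 ratio of Ereg to Tgfa was lower by 1.47 on average, in 3 of 3 mice below every control. The groups were also separate for Ereg over Hbegf, Egfr over Erbb3, Areg over Ereg and Areg over Btc. They were separate as well for Areg over Epgn, Tgfa over Btc and Btc over Epgn. The 18 ratios reuse the same genes, so these separations largely restate the results of single genes. Of all single genes tested, 18.7% were separate upward and 18.4% downward. How often ratios of other genes separate was not examined. The ratio of Hbegf to Tgfa overlapped between groups, with a mean difference of 0.21 (exact permutation p = 0.371), as did that of Areg to Tgfa (0.26, exact permutation p = 0.743).

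Single mice carried much of the spread. Among the controls, mouse 480 had the highest value for 8 of the 10 genes, including 4 of the 6 ligands and all 3 receptors. That mouse also had the highest sums of wound keratins, suprabasal markers and basal markers among the controls. The 4 wound keratins, which epidermis makes when stressed, summed to 18950 CPM in mouse 480 and to 2529 to 5115 CPM in mice 481 to 483. The 7 suprabasal markers summed to 45850 CPM against 13140 to 22770 CPM, and the 7 basal markers to 31230 CPM against 18200 to 19380 CPM. Not every keratin went this way: the basal marker Krt15 was lowest of the controls in mouse 480, at 1099 CPM. Among treated mice, mouse 476 was highest for 6 genes (Areg, Hbegf, Tgfa, Epgn, Egfr and Errfi1) and lowest for 3 (Btc, Erbb2 and Erbb3). It had the lowest suprabasal sum of all 7 mice, 7906 CPM, and the highest sum of 5 macrophage markers, 2227 CPM. Unlike control mouse 480, mouse 476 had the lowest wound keratin sum of its group, 9345 CPM. That sum was 21750 CPM in mouse 477 and 10180 CPM in mouse 478. The part of these markers in the differences between mice was not tested.

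Markers of several cell types also differed between the groups. All 5 macrophage markers rose, with a summed level of 173 to 450 CPM after DMSO and 627 to 2227 CPM after ABT-263. Of the 5 neutrophil markers, 4 were tested and 2 rose (Csf3r and S100a8), with sums of 99.7 to 1820 CPM and 5095 to 8086 CPM. S100a8 and S100a9 made up nearly all of each sum. Csf3r was at 78.0, 12.4 and 10.65 CPM in ABT-263-treated mice 476, 477 and 478. Cxcr2, which did not pass, was at 66.4, 13.6 and 14.2 CPM in these mice and at 12.7 CPM in control mouse 480. Ly6g, the defining neutrophil marker, was below the filter, at 14.0 CPM in mouse 476 and at most 0.253 CPM in the other 6 mice. All 4 endothelial markers rose (89.8 to 185 CPM and 288 to 373 CPM in sum), as did 3 of the 5 fibroblast markers (3692 to 5135 CPM and 5768 to 8073 CPM).

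Of the epidermal lists, 1 of 7 basal markers was higher and 1 lower, the 7 suprabasal markers and 4 wound keratins did not pass, and the summed levels overlapped between groups. Of the hair follicle markers, 5 were tested and 1 (Lhx2) was lower, with sums of 54.7 to 1284 CPM after DMSO and 9.47 to 263 CPM after ABT-263. Sebaceous gland and adipocyte markers did not pass and had overlapping sums. Mast cell and T cell markers, 5 of each, did not pass and had overlapping sums (55.7 to 158 and 79.3 to 217.5 CPM for mast cells). For cell types in which Erbb3 is known to act, 1 of 5 melanocyte markers (Dct) was lower, with sums of 83.1 to 314 CPM after DMSO and 8.04 to 51.5 CPM after ABT-263, and 1 of 5 Schwann cell markers was lower with overlapping sums (160 to 304 and 174 to 226 CPM). Of 5 skeletal muscle markers 1 was lower (23480 to 50740 and 16730 to 25810 CPM). How far the number of these cells accounts for the changes of the ligand and receptor genes was not tested.

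**Figure D4:**
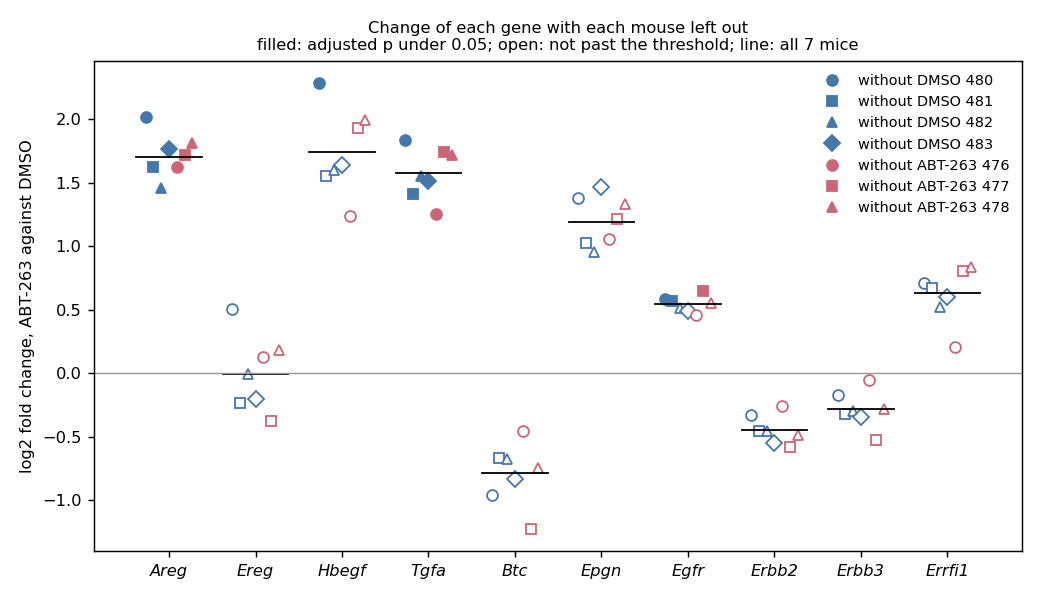
Log2 fold change of each gene with 1 mouse left out of the edgeR fit (blue: a DMSO-treated mouse, red: an ABT-263-treated mouse, symbol: which mouse, filled: adjusted p under 0.05, line: all 7 mice). Areg and Tgfa stay past the threshold in 7 of 7 fits, Egfr in 3 and Hbegf in 1, and Errfi1 ranges from 0.21 to 0.84.

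The surrounding pathway was described with 63 genes in 5 lists, of which 61 were tested, 17 were higher and 4 lower at the threshold, beside 12.4% higher and 11.7% lower of all genes tested. Among the rest of the EGF family, 4 of 6 genes were tested and 1 rose: Nrg1, which encodes a neuregulin that binds ERBB3 and ERBB4, went from 1.46 ± 0.777 CPM (n = 4) to 8.57 ± 6.31 CPM (n = 3, both SD). Nrg1 had an edgeR estimate of 2.54 on the log2 scale (adjusted p = 0.0184) and missed the threshold without DMSO-treated mouse 482. Egf, the founding ligand, was at 12.1 ± 5.61 and 19.5 ± 6.58 CPM (log2 fold change 0.68, adjusted p = 0.287). Erbb4, the fourth receptor, was below the filter, with 0.124 ± 0.0894 CPM in controls (n = 4) and 0.0574 ± 0.0519 CPM in treated mice (n = 3, both SD).

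Genes of ligand release, 11 in number and all tested, had 5 higher and 1 lower, with a median log2 fold change of 0.58. Adam17, the main protease that sheds amphiregulin, HB-EGF and TGF-alpha, went from 30.8 ± 6.48 to 52.1 ± 6.77 CPM (log2 fold change 0.76, adjusted p = 0.0233 from edgeR), and Adam10, which sheds betacellulin, from 40.6 ± 1.47 to 66.9 ± 14.1 CPM (0.72, adjusted p = 0.0158). Adam9 and Adam12, proteases of the same family, rose by 1.84 and 1.99 on the log2 scale (adjusted p = 0.0111 and 0.00980). Adam8 was the fifth to rise, and Timp3, which encodes an inhibitor of ADAM17, fell by 0.57 on the log2 scale (adjusted p = 0.0455). Adam8 and Timp3 lie outside the naming rule and were picked with their values in view. The count of 5 was 3 without DMSO-treated mouse 482 or 483 or ABT-263-treated mouse 476, and Timp3 kept its call in 1 of 7 fits with 1 mouse left out.

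Of the 19 genes of signal relay, 3 were higher and 3 lower (median -0.07 on the log2 scale), shares near those of all genes tested. Map2k1, the gene of the MAP kinase kinase MEK1, went from 24.7 ± 3.49 to 64.3 ± 11.6 CPM (log2 fold change 1.38, adjusted p = 0.00602 from edgeR), and the kinase gene Akt1 from 71.7 ± 14.9 to 155 ± 6.59 CPM (1.11, adjusted p = 0.00733). The adaptor gene Shc1 rose by 0.67 on the log2 scale (adjusted p = 0.0138). Pik3ca, a catalytic subunit gene of PI3-kinase, fell by 0.80 on the log2 scale (adjusted p = 0.00713), and the count of 3 lower was 1 without DMSO-treated mouse 482 or 483 or without ABT-263-treated mouse 476 or 478. Among 12 restraints of the pathway, 2 rose and 0 fell, also near the shares of all genes (median log2 fold change 0.36): Dusp4, a MAP kinase phosphatase gene, by 1.10 (adjusted p = 0.0268) and Spred1, an inhibitor of Ras signalling, by 0.77 (adjusted p = 0.0297). At an unadjusted p-value under 0.05, 0 restraints were lower. Neither Dusp4 nor Spred1 passed without DMSO-treated mouse 482 or 483 or without ABT-263-treated mouse 476 or 478.

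Among 15 early response targets, genes that growth factors switch on through MAP kinases but that other stimuli switch on too, 6 rose and 0 fell, with a median log2 fold change of 0.77. Fos went from 7.01 ± 1.85 to 39.3 ± 23.8 CPM (log2 fold change 2.49, adjusted p = 0.00807 from edgeR), Jun rose by 0.67, Egr1 by 0.98 and Myc by 0.62 on the log2 scale (adjusted p from 0.0132 to 0.0280). Ptgs2, the gene of cyclooxygenase-2, and Plaur, the gene of the urokinase receptor, were the other two that rose and were named after their values were seen. Ptgs2 was at 126, 20.1 and 5.99 CPM and Plaur at 242, 39.8 and 13.9 CPM in ABT-263-treated mice 476, 477 and 478, so mouse 476 stood far above the others for both. At an unadjusted p-value under 0.05, 1 of the 15 (Ccnd1) was lower. The count of 6 was 2 without DMSO-treated mouse 482 and 3 without mouse 483 or ABT-263-treated mouse 476.

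**Figure D5:**
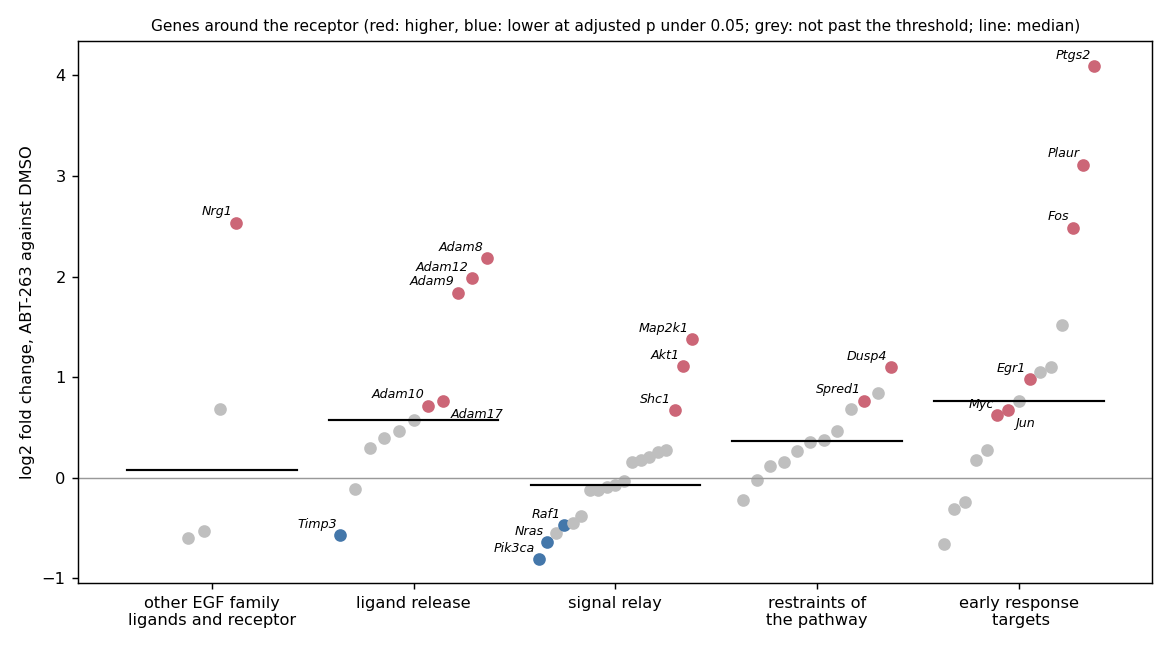
Log2 fold change of the 61 tested pathway genes in 5 lists (points: genes, red: higher and blue: lower at an adjusted p under 0.05, grey: not past the threshold, line: median of the list). Ligand release (median 0.58), restraints of the pathway (0.36) and early response targets (0.77) lie mostly above 0, and signal relay (median -0.07) lies on both sides.

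For each gene that rose, the protein-coding genes with the most similar pattern of log2 CPM over the 7 mice were sought among 13670 genes with a mean of at least 1 CPM. They were Fam102a, Akap10 and Dph1 for Areg (Pearson correlation 0.983 to 0.994), Cemip, Ap1g1 and Ifi206 for Hbegf (0.991 to 0.994), Ripk3, Rab5c and Xdh for Tgfa (0.993 to 0.995) and Zfp36l1, Gnptg and Kif3b for Egfr (0.991 to 0.996). With 7 mice, 2 treatments and 13670 genes compared, such values describe these libraries, and the treatment difference is part of each.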

How the data were processed

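RNA of dorsal skin homogenate from 7 mice was sequenced. The authors aligned reads with STAR 2.7.9a to mm10 and deposited raw counts per Ensembl gene (featureCounts of Subread 1.6.2, uniquely aligned proper pairs, same strand, mitochondrial genes excluded), with no normalization. The deposited log2-like values of the second table are variance-stabilized counts made by the authors with DESeq2 1.23.10, and served for 1 alternative. Mitochondrial genes were not analysed here. Symbols, lengths and positions came from GENCODE M21 (GRCm38, that is mm10), which held 55190 of 55450 identifiers and is not the Ensembl build 109 named by the study.

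Total counts ran from 20344364 to 43562330. The whole table was fitted in R 4.3.3 with edgeR 4.0.16 (TMM, filterByExpr, robust quasi-likelihood test, two-sided, Benjamini-Hochberg over 17959 genes). Standard errors are the log2 fold change divided by the root of F, and 95% intervals use the fit's degrees of freedom. Nothing in the labels names a batch, and each edgeR p-value weighs the difference between groups against the spread between mice. The fit was tested on simulated data. Alternatives were the DESeq2 1.42.0 Wald test, its size factors, other filters, protein-coding genes only, thinned counts, length and GC trends removed (mgcv 1.9.3), limma 3.58.1 on the variance-stabilized values, and leaving out each mouse.

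The 10 genes, the lists and the named-gene rule (all 10 genes, up to 4 called genes per pathway list with the smallest p, Egf and Erbb4, and 3 genes most like each called gene) were chosen with earlier results of these data known. Ratios between genes were added after their values were seen.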

Additional observations from a re-analysis of the deposited data

Results flagged for a closer look

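Among the 4 DMSO-treated mice, 25 measures (the 10 genes and 15 marker sums) were screened for 1 mouse set apart by Dixon's ratio, which is the gap to the nearest mouse over the whole range. The 95% critical value, which assumes normally distributed values, was exceeded by 6, each time on the high side. Under that assumption about 1.25 would exceed it. Whether CPM is normally distributed was not tested, so no excess over chance is read from these counts. Mouse 480 was the high one for Hbegf (ratio 0.850), and also for the summed markers of basal keratinocytes (0.909), wound keratins (0.843) and mast cells (0.879). Mouse 481 was far above the others for hair follicle markers (0.998), and mouse 483 for adipocyte markers (0.833). Groups of 3 treated mice were not examined this way.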

How the results depend on the processing

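No result of the 10 genes that passed the threshold changed direction under any alternative. Of 150 values of log2 fold changes under alternatives, 132 kept direction and side of the threshold. The number of genes higher was 4 in the fit of all mice and 2 to 4 with 1 mouse left out, and the number lower was 0 throughout. Hbegf kept its log2 fold change but not the call when the test took in all genes with any count (1.77, adjusted p = 0.122), and 6 fits without 1 mouse also lost it. Egfr lost the call in 4 such fits, and Epgn gained it in the DESeq2 Wald test. Ereg, never past the threshold, changed sign to 0.0042 in the DESeq2 Wald test, 0.0238 with every gene with a count and 0.12 with limma, and ranged from -0.38 to 0.51 with 1 mouse left out. With 1 mouse left out, genes higher numbered 0 to 1 in the rest of the EGF family, 3 to 5 in ligand release (lower 0 to 1), 0 to 2 in the restraints and 2 to 5 in the early targets, and genes lower in signal relay numbered 1 to 4. Counts of the pathway lists were recomputed with mice left out and under no other alternative. The causes of these losses were not tested, and each such fit has fewer mice. No paired analysis was possible because the mouse numbers are not shared between treatments. Levels of Btc, Areg and Epgn rest on 27 to 123 read pairs per DMSO library, which limits their precision.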
